A study of Mus musculus with 12 samples.

Results

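The genes described here encode the protein components of the cytosolic ribosome. They were chosen by name: protein-coding genes in any of the 4 deposited tables whose symbol starts with Rpl or Rps and goes on as a ribosomal protein number, with Rpsa added. The rule found 83 of 14907 genes, and 82 of them were among the 12385 genes tested. Rpl39l, a paralog of Rpl39, was the member not tested, because its tables give no value in one group.

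The cells were intestinal mesenchymal cells from the small intestine of C57/Bl6 mice, cultured to passage 3 and sorted for GFP. The group called wt carries the genotype MyD88F/F-RosamTmG in the sample labels, which name no Cre, while the series' design text calls the same cells Cre-positive, so the Cre status of the wt group is not settled. The group called MyD88ko carries ColVIcre-MyD88F/F-RosamTmG: in this model a Cre driven by a collagen VI promoter deletes the floxed Myd88 in cells where it is active and switches the mTmG reporter to GFP. Both genotypes share the floxed Myd88 and the reporter. Cells were serum starved overnight and either left untreated or given 2 µg/ml lipopolysaccharide (LPS) from E. coli for 6 h. Each of the 4 groups had 3 libraries of 3′ end sequencing, and the labels do not say that they came from separate mice, so p-values measure the spread between these libraries, which may be technical.

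A ribosome has a small subunit, which reads the mRNA, and a large subunit, which joins amino acids. Each ribosomal protein is needed in about equal amounts, and their mRNAs share a run of pyrimidines at the 5′ end, the terminal oligopyrimidine tract, through which the mTOR pathway controls their translation. LPS is sensed by TLR4, which signals through the adaptor MyD88 and also through TRIF.

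Values are the authors' normalized counts. Myd88 itself had values of 99, 98 and 103 in the untreated wt libraries and of 14, 8 and 10 in the untreated MyD88ko libraries (log2 fold change -3.15, limma with Benjamini-Hochberg adjustment, adjusted p = 0.000471). Sequencing depth, estimated from the pattern that rounding leaves among low values, lay between 2.5 and 5.3 M reads per library. All 11 mesenchymal markers examined were listed. Of 10 immune markers 4 were listed (Itgam, Lyz2, Cd68 and Csf1r), with a summed level of 17 to 58 per library, and Ptprc and Cd3e were among those not listed. Of 6 endothelial markers 2 were listed (Kdr and Tek), with a summed level of at most 10, and Pecam1 and Cdh5 were among those not listed. Wt untreated libraries 1 and 3 stood apart in some epithelial markers: Krt19 had values of 166, 0 and 62 and Cldn4 of 213, 7 and 122 in wt untreated libraries 1, 2 and 3. Epcam had 11, 1 and 10 in the same order. Cdh1 (3, 0 and 719) and Krt18 (1, 0 and 68) were high in library 3 only. Krt20 (3, 5 and 2) and Muc2 (0, 0 and 0) did not set these libraries apart, and Muc2 had 16, 32 and 11 in wt LPS. The summed level of 7 listed epithelial markers ranged from 13 to 983 in wt untreated, from 38 to 55 in wt LPS, from 8 to 11 in MyD88ko untreated and from 4 to 33 in MyD88ko LPS; Krt8, Vil1 and Cldn7 were not listed. The summed level of 5 listed hepatocyte markers ranged from 106 to 261 in wt untreated and from 119 to 171 in MyD88ko untreated, against 3 to 13 in wt LPS and 4 to 20 in MyD88ko LPS. The summed level of 4 listed glial and neuronal markers ranged from 529 to 854 in wt untreated, from 1185 to 2539 in wt LPS, from 321 to 512 in MyD88ko untreated and from 516 to 1397 in MyD88ko LPS. The part of these cell types in the results below was not tested. The codes of all LPS libraries come from a higher-numbered series than those of all untreated libraries, so an effect of LPS and one of the library series cannot be told apart. The codes of each group form a run of their own, so the same limit holds for the comparisons between genotypes. In bulk samples, fewer cells of a type and less RNA per cell cannot be told apart either.

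The start of the mRNA is shown for 6 members because the pyrimidine tract is a known feature of this gene family, and because the last of the 6 rose where most fell. Each line gives 30 bases before and 20 bases from the RefSeq start (GRCm38.p6), 5′ to 3′, with the run of pyrimidines that opens the transcript, where there is one, in capitals. The Rpl27 line has no capitals because its annotated start opens with no such run. The annotated starts of Rps19, Rpl5 and Rpl10a, which fell in both genotypes, open with no such run either. Rpl28 opens with a run of 8 and was called in neither genotype (log2 fold changes -0.24 in wt and -0.17 in MyD88ko). Rps15a, printed here, was not called in wt (-0.435) and fell in MyD88ko (-0.734, limma adjusted p = 0.037). A link between the run and the change with LPS was not tested.
Rpl35, chr2:39005112-39005161, minus strand: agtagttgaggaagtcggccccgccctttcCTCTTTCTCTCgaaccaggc
Rplp2, chr7:141447621-141447670, plus strand: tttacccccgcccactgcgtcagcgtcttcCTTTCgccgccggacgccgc
Rps6, chr4:86857348-86857397, minus strand: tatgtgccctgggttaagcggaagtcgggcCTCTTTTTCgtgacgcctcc
Rps27, chr3:90213629-90213678, minus strand: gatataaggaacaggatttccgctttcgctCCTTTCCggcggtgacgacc
Rps15a, chr7:118116128-118116177, minus strand: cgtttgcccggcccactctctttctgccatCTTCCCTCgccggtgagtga
Rpl27, chr11:101442215-101442264, plus strand: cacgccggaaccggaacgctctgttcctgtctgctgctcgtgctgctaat

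Of the 83 members, 62 had a RefSeq promoter entry. A C at the annotated start followed by at least 4 pyrimidines was found for 13 of them (20.97%), against 3.01% of all genes in the table. This count depends on the annotated base: a start placed a few bases away hides the tract. The letters CCGGAAG, on either strand, were in the promoter window of 26 members (41.94%) and of 9.93% of all genes. A pyrimidine start was found for 10 of 42 members that were lower in wt cells with LPS (23.81%) and for 3 of 19 that were not called or higher (15.79%). CCGGAAG was found for 17 (40.48%) and 8 (42.11%) of the same members. The letters CTTTCC, from 50 bases before the start to 50 after it, were found for 13 (30.95%) and 6 (31.58%). These splits were not tested.

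Ribosomal protein mRNAs made up a smaller share of the libraries after LPS in both genotypes. The 83 genes took 8.35, 9.04 and 7.50% of the summed values in the untreated wt libraries and 5.12, 5.09 and 5.21% in the wt LPS libraries. In MyD88ko cells they took 9.40, 9.44 and 9.75% untreated and 6.48, 6.25 and 5.85% with LPS. In each genotype every LPS library lay below every untreated library. Group means were 8.30% ± 0.771 and 5.14% ± 0.062 in wt, and 9.53% ± 0.192 and 6.19% ± 0.319 in MyD88ko (SD, n = 3). With 3 libraries against 3, an exact permutation test cannot reach the 0.05 threshold, and none was run on the share.

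**Figure D1:**
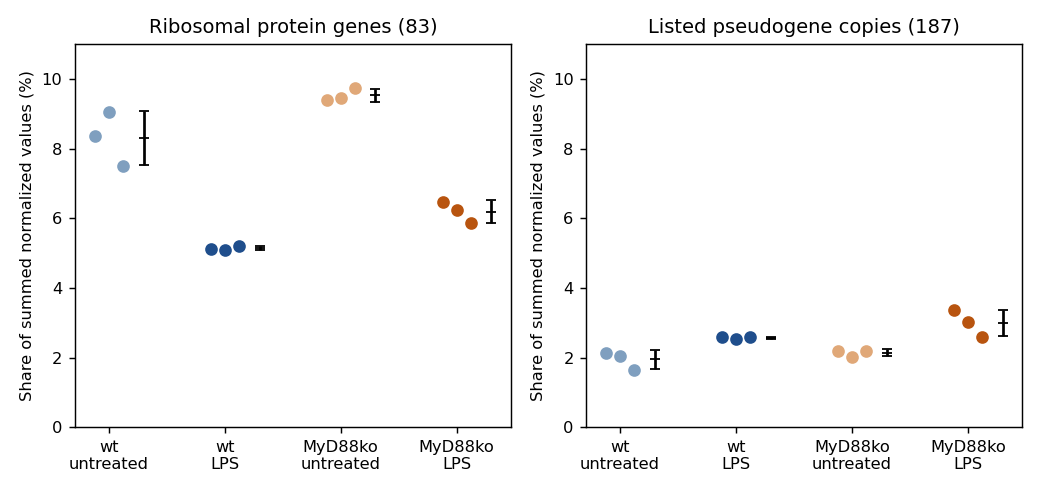
Share of the summed normalized values (%) taken by the 83 ribosomal protein genes (left) and by the 187 listed pseudogene copies of them (right). Points are libraries, bars are the mean and SD of 3; the genes' share is lower in every LPS library (5.09 to 6.48%) than in every untreated library (7.50 to 9.75%), while the copies' share is 1.65 to 2.20% untreated and 2.53 to 3.37% with LPS.

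In wt cells, 50 of 82 members fell and 3 rose with LPS, against 9.66% of all tested genes that fell and 9.55% that rose (19.2% in either direction). The median log2 fold change of the members was -0.78, and that of all tested genes was 0.01. Calls come from limma on log2(value + 1), with a Benjamini-Hochberg adjusted p under 0.05 over all tested genes; the pseudocount hardly touches these genes, whose lowest single value was 74. In 60 members every LPS library lay below every untreated library, and in 6 every LPS library lay above (17.4% of all genes in each direction). Without wt untreated libraries 1 and 3, 43 members fell and 2 rose, and the median was -0.97; the untreated library that remains is assumed to vary like the other groups.

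In MyD88ko cells, 43 of 82 members fell and 1 rose with LPS, against 3.4% and 2.58% of all tested genes (5.98% in either direction). The median was -0.79 for the members and 0.00 for all genes. The groups did not overlap in 57 members that were lower and 4 that were higher (13.3% and 12.2% of all genes). This count moved with single libraries: without MyD88ko untreated library 2, and likewise without library 3, 29 members fell and none rose.

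The 2 LPS comparisons share no library. Of the 82 members, 36 fell in both genotypes, 1 rose in both, 14 fell with a call in wt only, 7 fell with a call in MyD88ko only, 2 rose with a call in wt only and 22 were called in neither. None was called in opposite directions. Across the 82 genes, which are not independent, the fold changes of both genotypes had a Pearson r of 0.835 and a Spearman rho of 0.775. The libraries of both genotypes share the split by library series, so this likeness is a description. Joint counts and correlations over all tested genes are not given here. Whether the likeness is particular to the members was not tested.

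**Figure D2:**
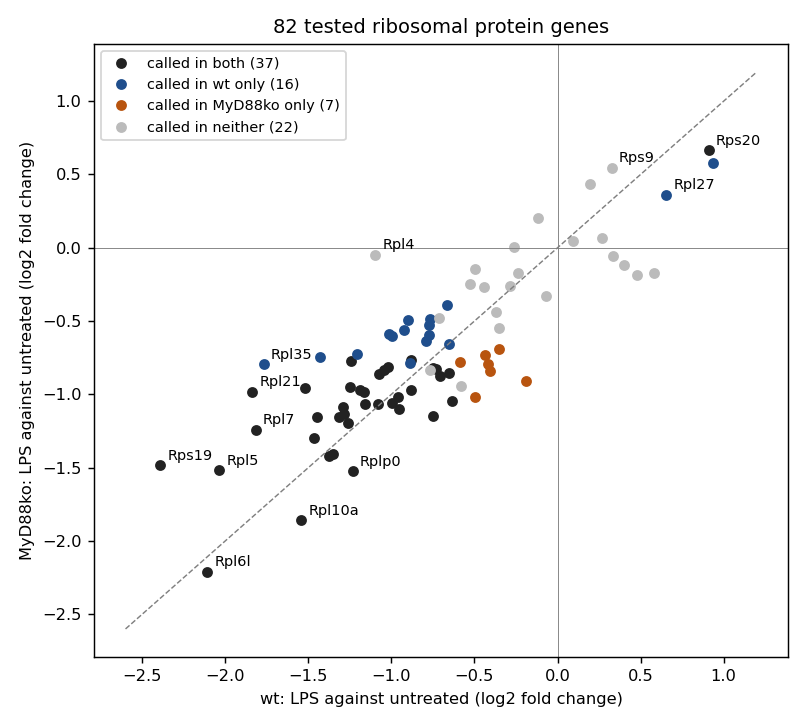
Log2 fold change with LPS in wt cells (x axis) against that in MyD88ko cells (y axis) for the 82 tested members, coloured by the genotype in which they were called; the dashed line marks equal change. Most genes lie in the lower left quadrant, and Rps20 and Rpl27 lie at the upper right.

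Among the 50 tested proteins of the large subunit, 33 fell and 1 rose in wt cells, and 28 fell in MyD88ko cells. Rpl5, which with Rpl11 and the 5S rRNA forms the particle that binds Mdm2, lies on chromosome 5 (107900502 to 107909005, mm10). Its values were 4789, 5923 and 2539 in untreated wt and 863, 1070 and 1126 in wt LPS libraries, and 5287, 4080 and 5624 in untreated MyD88ko and 2180, 1524 and 1550 in MyD88ko LPS libraries. All LPS libraries were below all untreated libraries of both genotypes. The log2 fold change was -2.04 (SE 0.26, limma adjusted p = 3.13e-05) in wt and -1.52 (SE 0.26, limma adjusted p = 0.00154) in MyD88ko. Rpl11 fell by 1.29 on the log2 scale in wt and by 1.08 in MyD88ko. When the values of listed pseudogene copies, described further on, were added to the gene, neither gene passed in either genotype: the log2 fold changes were -0.61 and -0.18 for Rpl5 and -0.56 and -0.37 for Rpl11 in wt and MyD88ko.

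Rpl10a, a protein near the exit site for tRNA, had values of 1862, 2069 and 2336 in untreated wt, 667, 809 and 675 in wt LPS, 2651, 3386 and 3162 in untreated MyD88ko and 730, 801 and 1016 in MyD88ko LPS libraries. Here too the treated and untreated libraries did not overlap. It fell by 1.54 on the log2 scale in wt (limma adjusted p = 2.82e-05) and by 1.86 in MyD88ko (limma adjusted p = 2.3e-05). With its copies added, the log2 fold change was -0.39 in wt, which did not pass (limma adjusted p = 0.171), and -0.70 in MyD88ko, which did (limma adjusted p = 0.035). Rpl7 fell by 1.82 and 1.24, Rpl21 by 1.84 and 0.98, and Rpl13a, known also for a role in silencing inflammatory mRNAs, by 1.52 and 0.96 in wt and MyD88ko. With copies added, Rpl7 (-0.96) and Rpl13a (-1.05) still passed in wt, and in MyD88ko Rpl7 (-0.49) and Rpl13a (-0.30) did not. Rpl21 has 60 annotated copies, of which 0 are listed, so no such sum could be made for it. Rpl35, whose start is printed above, had values of 1742, 1513 and 683 untreated and 363, 326 and 382 with LPS in wt (log2 fold change -1.77, limma adjusted p = 0.000333). In MyD88ko its log2 fold change of -0.79 did not pass (limma adjusted p = 0.118).

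Rpl27a was the member with the highest mean over all libraries (14538). Its values did not pass in either LPS comparison, with log2 fold changes of -0.35 in wt and -0.55 in MyD88ko. Rpl27, on chromosome 11 (101442298 to 101445529, mm10), had values of 1951, 1774 and 1901 untreated and 3058, 2590 and 3250 with LPS in wt, without overlap. It rose in wt (log2 fold change 0.66, SE 0.18, limma adjusted p = 0.0124). In MyD88ko it stood at 2565, 2544 and 2568 untreated and 3408, 3252 and 3214 with LPS, and its log2 fold change of 0.36 did not pass (limma adjusted p = 0.244). Rpl4 had the largest standard error of all members in both LPS comparisons (0.42): its values ran from 2313 to 6696 in untreated wt and from 1995 to 6128 in MyD88ko LPS libraries.

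The stalk of the large subunit, which recruits elongation factors, is built from Rplp0, Rplp1 and Rplp2. Rplp2 had values of 8476, 11351 and 12670 untreated and 4193, 3754 and 4419 with LPS in wt, and 11841, 13931 and 15514 untreated and 5389, 5426 and 4593 with LPS in MyD88ko. It fell by 1.38 and 1.42 on the log2 scale in wt and MyD88ko. Rplp0 fell by 1.23 and 1.52. With its copies added, Rplp0 passed in neither genotype, with log2 fold changes of -0.40 (limma adjusted p = 0.144) and -0.60 (limma adjusted p = 0.0654). Rplp1 had a log2 fold change of -0.41 in wt, which did not pass (limma adjusted p = 0.256), and fell by 0.84 in MyD88ko (limma adjusted p = 0.0404).

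Among the 32 proteins of the small subunit, 17 fell and 2 rose in wt cells, and 15 fell and 1 rose in MyD88ko cells. Rps19, mutated in Diamond-Blackfan anaemia, lies on chromosome 7 (24884371 to 24889806, mm10) and had the lowest log2 fold change of all members in wt. Its values were 6462, 8214 and 7266 in untreated wt and 1043, 1467 and 1744 in wt LPS libraries, and 7926, 5585 and 6699 in untreated MyD88ko and 2440, 2419 and 2291 in MyD88ko LPS libraries. All 6 LPS libraries lay below all 6 untreated libraries, and the wt LPS libraries lay below the MyD88ko LPS libraries. The log2 fold change was -2.39 (SE 0.21, limma adjusted p = 8.61e-07), a 5.24-fold difference, in wt and -1.49 (SE 0.21, limma adjusted p = 0.000314) in MyD88ko. The test of the difference between both responses gave 0.91 (SE 0.30, limma adjusted p = 0.362).

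Rpsa, also known as the laminin receptor, had values of 12637, 14317 and 16228 untreated and 6110, 6047 and 4800 with LPS in wt, and 19255, 20239 and 22319 untreated and 7007, 8336 and 7942 with LPS in MyD88ko. It fell by 1.35 on the log2 scale in wt and by 1.41 in MyD88ko, with no overlap. Rps6, the target of the S6 kinases, fell by 1.16 and 1.07, and with its copies added it passed in neither genotype (-0.34 and -0.36). Rps27a, which is made as a fusion with ubiquitin, fell by 1.31 and 1.16. Rps3, which lines the mRNA entry channel, fell by 0.78 in wt, and its log2 fold change of -0.59 in MyD88ko did not pass (limma adjusted p = 0.0707).

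Rps20, on chromosome 4 (3831334 to 3835665, mm10), moved the other way. Its values were 5224, 5274 and 5110 in untreated wt, 9619, 8790 and 11022 in wt LPS, 7297, 7902 and 8336 in untreated MyD88ko and 12409, 12066 and 12783 in MyD88ko LPS libraries. Every LPS library exceeded every untreated library of both genotypes. It rose by 0.91 on the log2 scale in wt (SE 0.18, limma adjusted p = 0.00122) and by 0.66 in MyD88ko (SE 0.18, limma adjusted p = 0.0292).

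**Figure D3:**
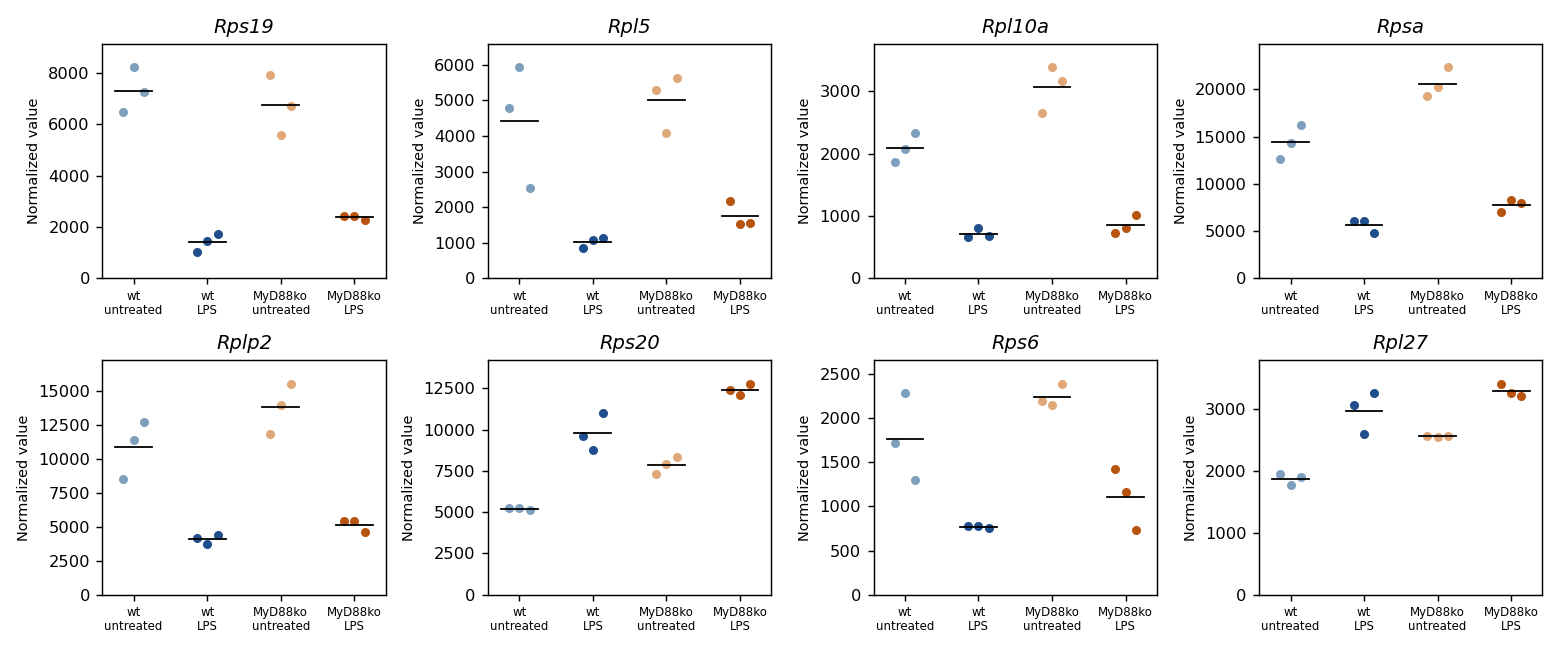
Normalized values of 8 members in each of the 12 libraries (points) with the mean of 3 (line); each y axis starts at 0. Rps19, Rpl5, Rpl10a, Rpsa, Rplp2 and Rps6 are lower in the LPS libraries of a genotype than in its untreated libraries, and Rps20 and Rpl27 are higher.

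Some members have a paralog with its own gene, and the levels of a pair are set side by side here as a ratio within each library. Rpl22l1 stood at 52.2% ± 4.36 of Rpl22 in untreated wt and 22.3% ± 3.70 in wt LPS, and at 56.6% ± 4.88 and 23.6% ± 2.47 in MyD88ko (SD, n = 3). Rpl22l1 fell by 1.04 on the log2 scale in wt and by 0.83 in MyD88ko, while Rpl22 was not called (0.20 and 0.43). Rpl22l1 has 1 listed pseudogene copy, Gm15421, and with it added neither call held: the log2 fold changes were -0.13 (limma adjusted p = 0.689) and -0.10 (limma adjusted p = 0.826). Rps27l, a p53 target, stood at 15.2% ± 4.16 of Rps27 in untreated wt and 45.5% ± 5.97 in wt LPS, and at 14.4% ± 3.96 and 29.8% ± 1.70 in MyD88ko. There it was Rps27 that fell, by 1.28 and 1.14, and Rps27l was not called (0.33 and -0.06). These ratios describe change between groups, since read counts per gene also depend on where each 3′ end maps.

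Rpl36a fell by 0.99 on the log2 scale in wt and was not called in MyD88ko (-0.60), and Rpl36al was called in neither (-0.49 and -0.15). Rpl7l1 was called in neither (0.40 and -0.12). Rpl6l, which the deposited tables list as protein coding and the GENCODE M21 annotation as a processed pseudogene, had values of 438, 309 and 315 untreated and 74, 77 and 91 with LPS in wt, and 434, 480 and 455 untreated and 74, 100 and 126 with LPS in MyD88ko. It fell by 2.11 and 2.21 on the log2 scale. Rpl39l had values of 77, 5 and 21 in untreated wt, was listed at 0 in the 3 wt LPS libraries and had values of 0, 2 and 0 in untreated MyD88ko, so its level rests on wt untreated libraries 1 and 3, those that stood apart. Rps4l is listed as a pseudogene in the tables and is no member.

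**Figure D4:**
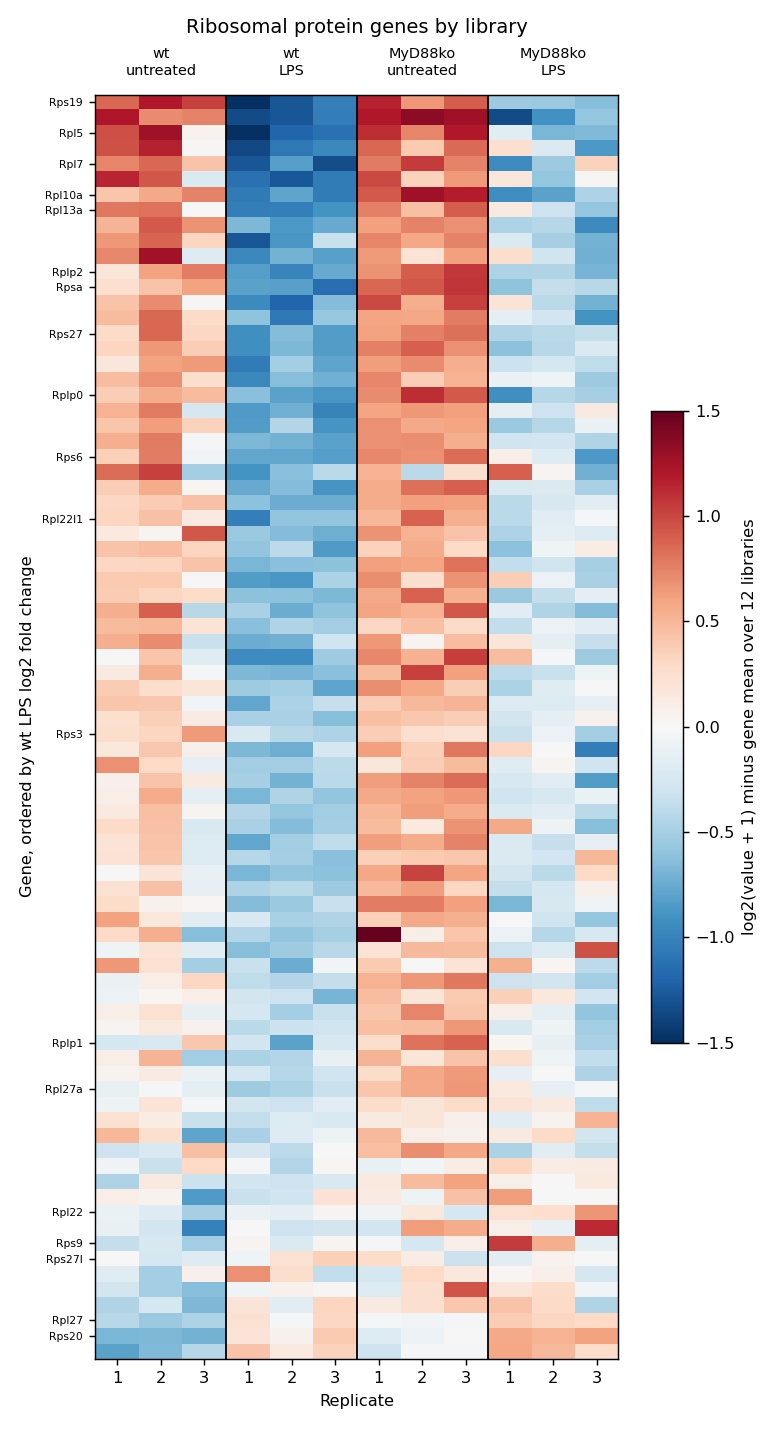
Log2(value + 1) of the 82 tested members in each library minus the gene's mean over the 12 libraries, ordered by the log2 fold change with LPS in wt from lowest (top) to highest (bottom). Most rows are higher in the untreated and lower in the LPS libraries; Rps20 and Rpl27 near the bottom run the other way. Some of the genes named in the text are labelled.

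Ribosomal protein genes have many processed pseudogenes, retrocopies of the mRNA, to which their reads can also map. By sequence, 626 annotated pseudogenes matched a member at 95% identity or more over at least 200 bases, and 187 of them are listed in the tables, where the shortest gene spans 501 bases. They matched 33 of the 83 members. The listed copies took 1.95% ± 0.263 of the summed values in untreated wt, 2.57% ± 0.032 in wt LPS, 2.14% ± 0.098 in untreated MyD88ko and 3.00% ± 0.386 in MyD88ko LPS libraries (SD, n = 3). Their share was thus higher with LPS, where that of the genes was lower. Single copies moved both ways. Of 166 tested, 51 rose and 44 fell in wt, with a median log2 fold change of -0.07 (9.55% and 9.66% of all tested genes). In MyD88ko 32 rose and 22 fell, with a median of 0.07 (2.58% and 3.4% of all tested genes). The higher share is thus one of the sum and not of most copies. Genes and copies together took 10.2% ± 0.998, 7.71% ± 0.080, 11.7% ± 0.254 and 9.18% ± 0.698 in the same order.

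Among the 33 members with a listed copy, the mean of the member was higher with LPS in 2 and the mean of its summed copies in 27 in wt, and in 3 and 29 in MyD88ko. Rps4x had means of 1664 untreated and 778 with LPS in wt, and its 5 listed copies summed to 1207 and 2743. Rpl10a had means of 2089 and 717, and its 3 copies summed to 3390 and 3483. Rps9 had means of 4481 and 5623, and its 1 copy had means of 1695 and 5199.

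When each member was summed with its listed copies, 32 members fell and 6 rose in wt, with a median log2 fold change of -0.49, and 24 fell and 2 rose in MyD88ko, with a median of -0.43. Among the 33 members with a listed copy, the number that fell went from 24 to 6 in wt and from 23 to 5 in MyD88ko. The log2 fold change of the sum lay above that of the member alone in 33 of 33 in both genotypes. For Rps4x it was 0.31 in place of -1.08 in wt. Rpsa still fell with its 9 copies, by 0.96 in wt and 1.10 in MyD88ko, and so did Rps23 with its 1 copy, by 1.41 and 1.12. Rps9, not called alone, rose with its copy by 0.81 in wt (limma adjusted p = 0.0344) and by 0.91 in MyD88ko (limma adjusted p = 0.0424). How reads were divided between genes and copies was not tested, and it is not given in the sources used here how reads that map to several places were counted.

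The members without a listed copy do not depend on that sum. Of 49 tested, 26 fell and 3 rose in wt, with a median of -0.75, and 20 fell and 1 rose in MyD88ko, with a median of -0.59. Rps19, Rps20, Rpl27, Rpl35 and Rpl6l are among them. Of all members, 75 have an annotated copy and 33 a listed one. Most members without a listed copy thus have annotated copies that are not listed. Rpl21 has 60 of these, Rpl29 has 47, Rps12 has 21, Rpl27 has 7, Rps19 has 6 and Rps20 has 2. Others, such as Rplp2 and Rpl39, have 0. The sum with listed copies does not test the part of the unlisted ones. Grouped by annotated copies, the wt median was -0.45 for 22 members with 0 to 2 copies, -0.95 for 23 with 3 to 5, -0.83 for 20 with 6 to 10 and -0.96 for 17 with over 10. In MyD88ko the medians were -0.41, -0.82, -0.81 and -0.94. Of the 22 members with 0 to 2 copies, 8 fell and 2 rose in wt, and 8 fell and 1 rose in MyD88ko. Spearman's rho between the number of copies and the log2 fold change, across 82 genes that share libraries and depth, was -0.324 in wt and -0.309 in MyD88ko.

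**Figure D5:**
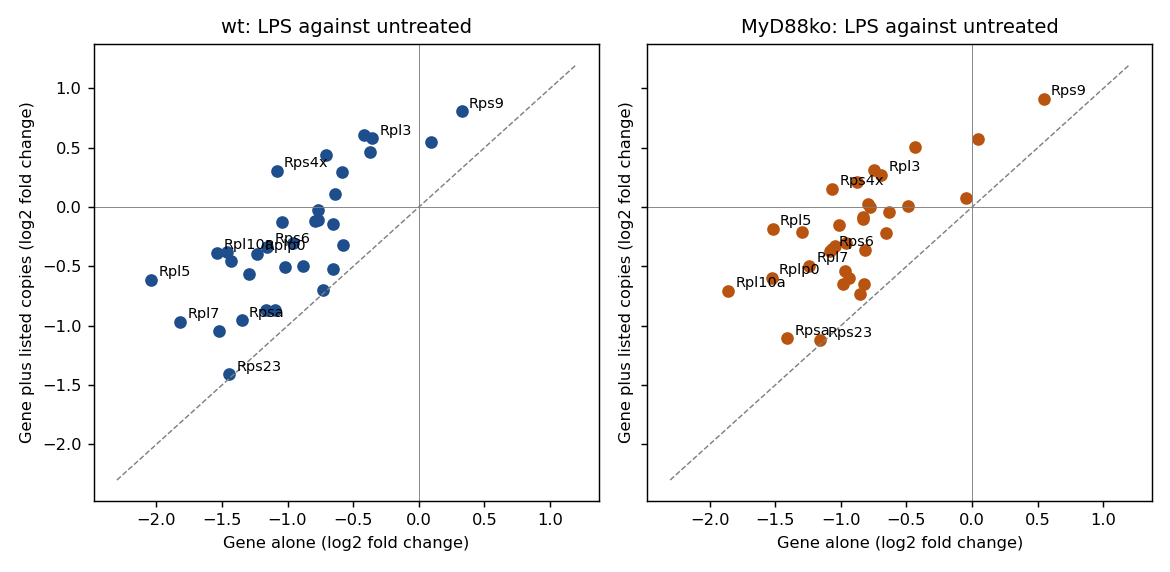
Log2 fold change with LPS of the 33 members with a listed pseudogene copy, for the gene alone (x axis) and for the gene summed with its copies (y axis), in wt (left) and MyD88ko (right); the dashed line marks equal values. All 33 points lie above the line in both panels, Rps4x and Rpl3 above 0 and Rps23 close to the line.

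Between genotypes, no member passed the test. In untreated cells the members' median log2 fold change of MyD88ko against wt was 0.31, with 74 of 82 above 0, against 50% of all tested genes, and 0 were called in limma (0.791% of all genes were called higher and 1.09% lower, 1.88% in all). At an unadjusted p under 0.05 stood 25 members that were higher in MyD88ko and 0 that were lower, against 7.73% and 7.8% of all genes. In 28 members every MyD88ko library exceeded every wt library, and in 0 the reverse held (10.5% and 9.89% of all genes). Rpl27a had the smallest adjusted p, with values of 13059, 13738 and 12724 in wt and 18772, 20816 and 22118 in MyD88ko libraries (log2 fold change 0.64, limma adjusted p = 0.0737). Without wt untreated libraries 1 and 3, the members' median was 0.15 and 55 of 82 lay above 0.

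With LPS, the median of MyD88ko against wt was 0.36, with 78 of 82 above 0 against 49.8% of all tested genes, and again 0 were called in limma (0.452% of all genes were called higher and 1.04% lower, 1.49% in all). At an unadjusted p under 0.05 stood 25 members that were higher in MyD88ko and 0 that were lower, against 5.86% and 6.14% of all genes. In 40 members every MyD88ko library exceeded every wt library, and in 0 the reverse held (7.54% and 8.31% of all genes). Rps19 had the smallest adjusted p (log2 fold change 0.78, limma adjusted p = 0.0732), followed by Rpl35 with 1.02 (limma adjusted p = 0.104). This comparison holds no untreated library.

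The response to LPS was not shown to differ between genotypes for any member. In the test of the difference 0 of 82 members were called in limma (0.00807% of all genes were called higher and 0.00807% lower, 0.0161% in either direction), and 5 had an unadjusted p under 0.05, 3 of them with a higher and 2 with a lower value in MyD88ko (4.43% and 4.75% of all genes). The median difference was 0.08, and the median standard error of a single member's difference was 0.292.

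Other genes of translation were taken from lists that overlap in part. Their counts stand beside the shares of all tested genes given above, 9.66% lower and 9.55% higher in wt and 3.4% lower and 2.58% higher in MyD88ko. Fau, whose product carries ribosomal protein S30, had values of 1629, 1645 and 1152 untreated and 582, 468 and 434 with LPS in wt, and fell by 1.57 on the log2 scale in wt and by 1.12 in MyD88ko. Of 24 other mRNAs with a terminal oligopyrimidine start, 10 fell and 2 rose in wt (median -0.51), and 8 fell and none rose in MyD88ko (median -0.40). Naca, a subunit of the nascent polypeptide-associated complex, had values of 1707, 1925 and 1538 untreated and 310, 327 and 309 with LPS in wt. It fell by 2.44 in wt and by 1.83 in MyD88ko. The elongation factor subunit Eef1b2 fell by 1.25 and 0.87.

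Of 42 elongation and translation factors, 8 fell and 4 rose in wt (median -0.01), and 7 fell and 1 rose in MyD88ko (median -0.24). Of 53 genes of ribosome biogenesis, 5 fell and 5 rose in wt (median 0.18), and 3 fell and 2 rose in MyD88ko (median 0.05); in wt these counts were close to the shares of all genes. Sbds, which frees the new large subunit for translation, fell by 1.94 in wt, and Nol6, a processing factor of the small subunit, rose by 1.58. Of 78 mitochondrial ribosomal protein genes, 3 fell and 8 rose in wt (median -0.02), and 1 fell and 1 rose in MyD88ko (median 0.01). No test compared these lists with the cytosolic ribosomal protein genes.

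In the authors' deposited table for wt, 14 members were lower and 0 higher with LPS at an FDR under 0.05 (4.35% of all genes in it were called), among them Rps19 (log2 fold change -2.37) and Rpl5 (-2.11). The 14 include Rpl39l (-5.14), which was not tested here and whose level rests on wt untreated libraries 1 and 3. In the authors' deposited table for MyD88ko, 3 members were lower, namely Rpl10a (-1.85), Rpl5 (-1.51) and Rpl6l (-2.18), and 0 were higher (0.755% of all genes in it were called). In the authors' deposited table for untreated cells, Rpl39l was the 1 member called, lower in MyD88ko, out of 83 (1.6% of all genes in it were called). In the authors' deposited table for LPS-treated cells 0 members were called (0.544% of all genes).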

How the data were processed

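Libraries were made with a 3′ end kit and sequenced on an Ion Proton, per the labels' protocols. TopHat2, Bowtie2, DESeq and mm10 are named in the submitters' processing notes. The deposited values are normalized counts that the authors rounded to whole numbers, used here as a score and not as raw counts. The log2 fold changes and FDR p-values deposited by the authors were used only where named. Tables shared libraries, and all 166719 values given in 2 tables were identical.

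Values of 12 libraries were fitted as log2(value + 1) with limma 3.58.1 (R 4.3.3; trend, robust, 1 coefficient for each of 4 groups, 8 residual degrees of freedom) over 12385 genes with values in all libraries and a group mean of at least 10. P-values were Benjamini-Hochberg adjusted over these genes, with a threshold of 0.05, in 5 comparisons. The fit and the depth estimate were tested on simulated data. Depth estimates are least exact for libraries whose scaling is close to 1.

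Pseudogene copies were found with blastn 2.17.0 among GENCODE M21 transcripts, each given to its best-matching member. This alternative was chosen after seeing the data, and a shorter minimum match and a definition over all gene types were also looked at before it was settled. Promoters are from RefSeq (GRCm38.p6).

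Members named in the text were, per comparison, all called members if 12 or fewer, otherwise the 6 highest and 6 lowest, the 5 with the highest mean, preset paralog pairs and members with known roles, and up to 4 genes of each other list by p. Rpl4, Rps9 and Rps23 were named after their values were seen. Some genes the rule selects are not reported here. Members and lists were chosen with earlier results of these data known. Same-numbered libraries of different groups had correlated deviations of -0.114 to 0.171, over 0.1 in 2 of 18 pairs, so numbers were not taken to pair libraries. Alternatives tried were other scalings, pseudocounts, filters, variance models, omitted libraries, a replicate block and sums with copies.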

Additional observations from a re-analysis of the deposited data

How the results depend on the processing

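The number of members called stayed between 38 and 55 in wt and between 25 and 46 in MyD88ko over the alternatives that keep all libraries or omit 2, against 53 and 44. Limma without a trend called 25 in MyD88ko. Summing with the copies found by sequence gave 26 there, with medians of -0.494 in wt and -0.435 in MyD88ko; summing by symbol (67 pseudogenes, 22 members) gave a MyD88ko median of -0.642. Quantile normalization gave medians of 0.137 and 0.196 for MyD88ko against wt untreated and with LPS. Without both wt untreated replicates 1 and 3, medians were -0.966 for LPS in wt, 0.147 for the untreated genotypes and 0.255 for the difference between LPS responses. The causes were not tested.

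Omitting each library in turn gave 43 to 58 members called in wt (medians -0.918 to -0.706) and 29 to 40 in MyD88ko (medians -0.819 to -0.721). It gave 0 to 1 in either genotype comparison, and medians of -0.044 to 0.16 for the difference between LPS responses, below 0 without wt untreated replicate 2. Of 53 calls in wt, 41 held in every omission, and 24 of 44 in MyD88ko. With the replicate block 52 members were called in wt and 44 in MyD88ko, and 0 in the other comparisons.

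Summed by symbol, Rpl10 changed sign in wt (0.378). Summed by sequence, Rpl6 (0.111), Rps4x (0.308) and Rpl3 (0.581) changed sign in wt, and Rps4x (0.152) and Rpl3 (0.273) in MyD88ko. Reads were estimated at 2.5 to 5.3 M per library, and what size of difference this depth could show was not tested.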
